A study of Homo sapiens with 6 samples.

Results

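The ephrins and Eph receptors, the semaphorins with their plexin and neuropilin receptors, and the SLIT ligands with their ROBO receptors are cell-surface and secreted proteins of cell guidance. Members were chosen by a rule on gene symbols. The symbols matched 60 of the 27968 genes in the gene tables: 14 Eph receptors, 8 ephrins, 20 semaphorins, 9 plexins, 2 neuropilins, 3 SLITs and 4 ROBOs. RNA came from T47D, an established human breast cancer line of luminal type that carries the estrogen receptor. Cells kept in RPMI with 10% serum received, with a lipid reagent, either an siRNA against HOTAIR-N or a control siRNA. HOTAIR is a long noncoding RNA transcribed from the HOXC cluster, and HOTAIR-N is the form of it named in the labels. Each siRNA was given in 3 separate transfections, with total RNA collected 48 hours later. The comparison asks what differs in these cells after the HOTAIR-N siRNA, with a single siRNA label per group and a single cell line.

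Eph receptors are receptor tyrosine kinases, and ephrins are their membrane-bound ligands. A-type ephrins are held by a lipid anchor and mostly bind EphA receptors, while B-type ephrins span the membrane and mostly bind EphB receptors, so that touching cells signal to each other in both directions. Class 3 semaphorins are secreted and usually act through a neuropilin that is paired with an A-type plexin. Semaphorins of classes 4 to 7 are tied to the membrane and bind plexins directly. SLITs are secreted repellents that bind ROBO receptors. All of these pathways end on the actin cytoskeleton, and in breast epithelium they are known for roles in branching, adhesion between epithelial layers and the growth of blood vessels into tumours.

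HOTAIR was at 5.65, 5.63 and 5.68 CPM in HOTAIR-N siRNA libraries 1, 2 and 3, against 16.2, 16.1 and 16.6 CPM in control siRNA libraries 1, 2 and 3. CPM here are counts scaled to a common library size. That is 34.7% of control, or a log2 fold change of -1.53 with SE 0.07 (adjusted p = 2.11e-09 in edgeR). Libraries held 31777001 to 36707169 expected counts, so that 1 CPM stood for 32.9 to 36.4 counts, and the guidance genes took 0.149% to 0.173% of each library. All 10 luminal breast markers were over 1 TPM (RSEM's level per transcript length), with a summed level of 8245 to 9111 TPM after HOTAIR-N siRNA and 9103 to 10320 TPM in controls. This sum is mostly keratin RNA (KRT8, KRT18 and KRT19). Of the 10 markers in it 6 fell, 2 rose and 2 were not called, beside 34.8% lower and 36.2% higher of all tested genes. ESR1, the estrogen receptor gene, was at 28.3 TPM after HOTAIR-N siRNA and 86.2 TPM in controls (log2 fold change -1.64), and PGR also fell (-1.46), while TFF1 and CDH1 rose (1.62 and 0.90). The part of these changes in the results was not tested. Markers of endothelium, leukocytes and glia were each under 1 TPM. Of 6 fibroblast markers 1 (COL1A1) passed 1 TPM, and of 4 neuron markers 2 (TUBB3 and MAP2) did. The neuron sum was 33.1 to 37.9 TPM after HOTAIR-N siRNA and 23.6 to 28.1 TPM in controls, and its part in the results was not tested. HOTAIR-N siRNA library 3 and control siRNA library 2 stood further from the other libraries of their groups (chi-square per degree of freedom 6.64 to 8.56, against 2.16 and 2.30 for the remaining pairs). In bulk RNA, fewer cells with a transcript and less of it per cell cannot be told apart.

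Of the 60 guidance genes, 50 were high enough to be tested. After HOTAIR-N siRNA 18 rose, 17 fell and 15 were not called, with a threshold of 0.05 on the adjusted p (edgeR's quasi-likelihood method, Benjamini-Hochberg over all genes). The share called was 70%, beside 71.1% of all 14919 tested genes. By direction it was 36% higher and 34% lower, beside 36.2% and 34.8% of all tested genes. Both the total share and its split were thus near the background. The median log2 fold change was 0.01 over the guidance genes and 0.02 over all tested genes. Changes of at least 2-fold were found in 15 of the 50 (30%), beside 15.8% of all tested genes, with 5 higher and 10 lower. Another 13 of the called guidance genes differed by less than 1.5-fold. The median size of the log2 fold change without its sign was 0.57 over the guidance genes and 0.38 over all tested genes. The groups did not overlap, in either direction, for 37 of the 50 (74%), beside 73.4% of all tested genes.

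**Figure D1:**
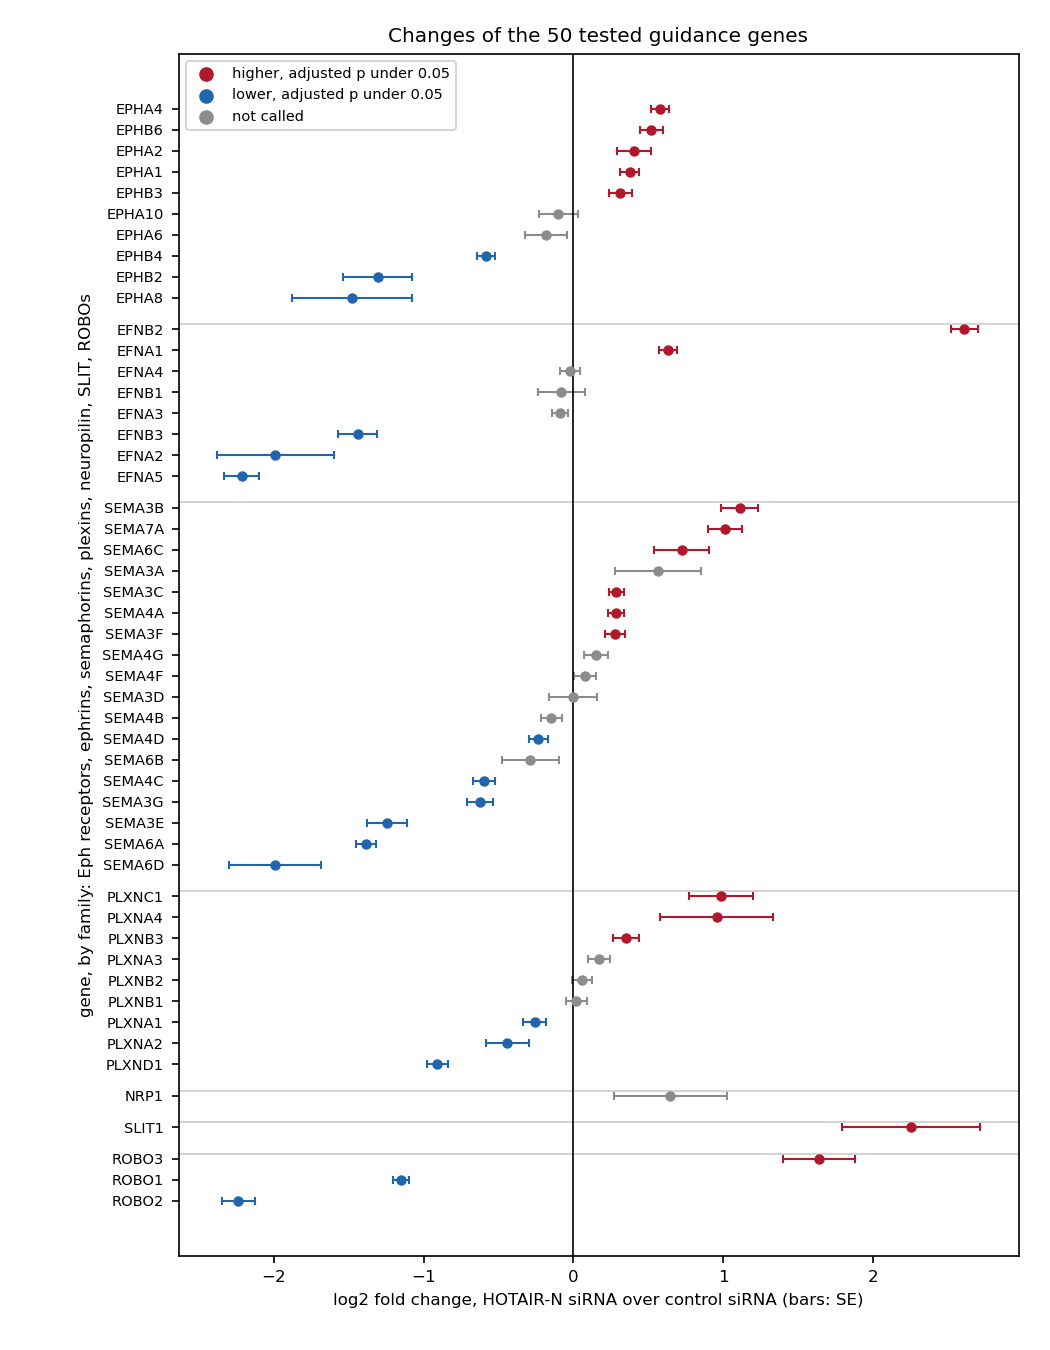
Log2 fold change of each of the 50 tested guidance genes (x axis, HOTAIR-N siRNA over control siRNA, bars: SE), by family and ordered by size within it. Red points are the 18 called higher, blue points the 17 called lower and grey points the 15 not called; every family with more than 1 tested gene holds changes in both directions.

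The number of tested genes depends on the filter, which asked for about 0.284 CPM in 3 libraries. This was met in both groups by 44 of the 50, of which 16 rose, 14 fell and 14 were not called. Among all 13913 genes that met it in both groups, 4934 rose, 5035 fell and 3944 were not called. Of these 44, 11 changed at least 2-fold (25%, with 4 higher and 7 lower), beside 13% of the 13913 genes that met it in both groups. NRP1, PLXNA4 and SLIT1 reached it in the HOTAIR-N siRNA libraries alone, and EFNA2, EPHA8 and SEMA6D in the control libraries alone. A gene of that kind was tested through a single group, which favours a difference between the groups, so these 6 are given with their counts below. Without HOTAIR-N siRNA library 3 and control siRNA library 2, 18 guidance genes rose and 18 fell.

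**Figure D2:**
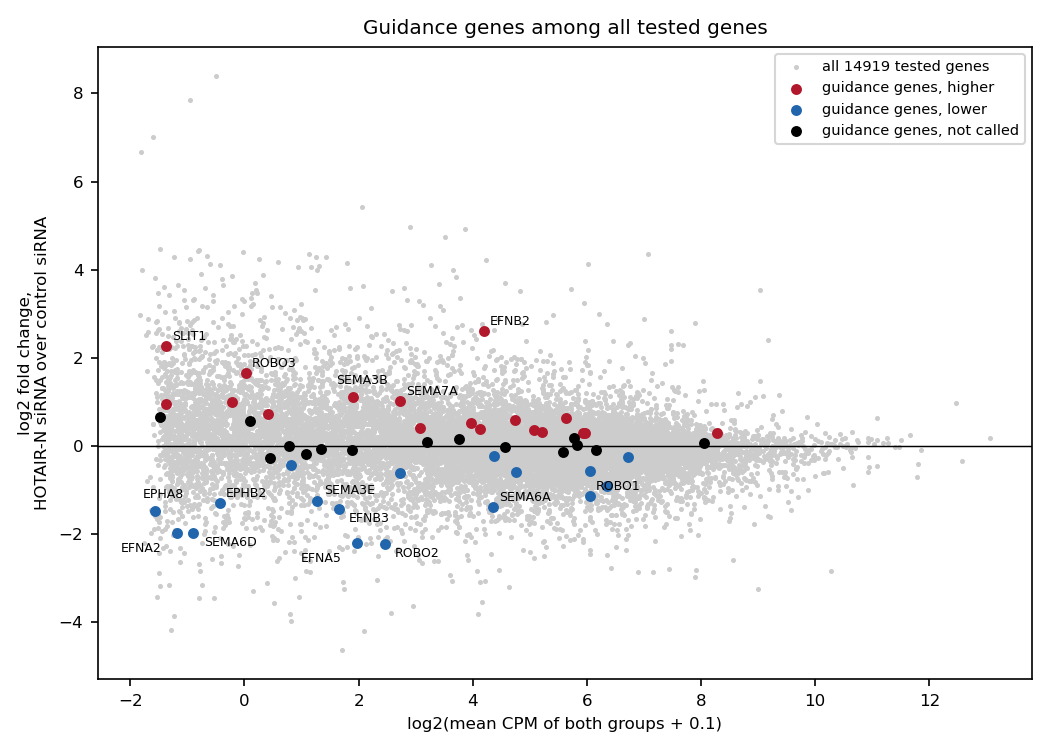
Log2 fold change (y axis, HOTAIR-N siRNA over control siRNA) against the mean level of both groups (x axis, log2 of CPM + 0.1) for all 14919 tested genes in grey and the 50 guidance genes in colour. Guidance genes changed at least 2-fold are labelled, and EFNB2 (2.61) is the highest of them while ROBO2 (-2.24) and EFNA5 (-2.22) are the lowest.

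SEMA3C had the highest level per transcript length of all 60 genes, at 128.9 ± 5.78 TPM after HOTAIR-N siRNA and 104.2 ± 7.17 TPM in controls (SD, n = 3 each). EFNA3, EFNA1 and PLXNB2 came next, followed by EFNA4, and among the Eph receptors EPHB4 was highest, at 23.9 ± 1.38 TPM after HOTAIR-N siRNA and 35.0 ± 1.97 TPM in controls. Within the HOTAIR-N siRNA group, EFNA3 (80.2 TPM), EFNA1 (80.7 TPM) and PLXNB2 (81.8 TPM) did not differ from one another beyond their spread. In controls EFNA3 stood at 83.6 TPM and PLXNB2 at 77.0 TPM, while EFNA1 was lower, at 51.1 TPM.

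**Figure D3:**
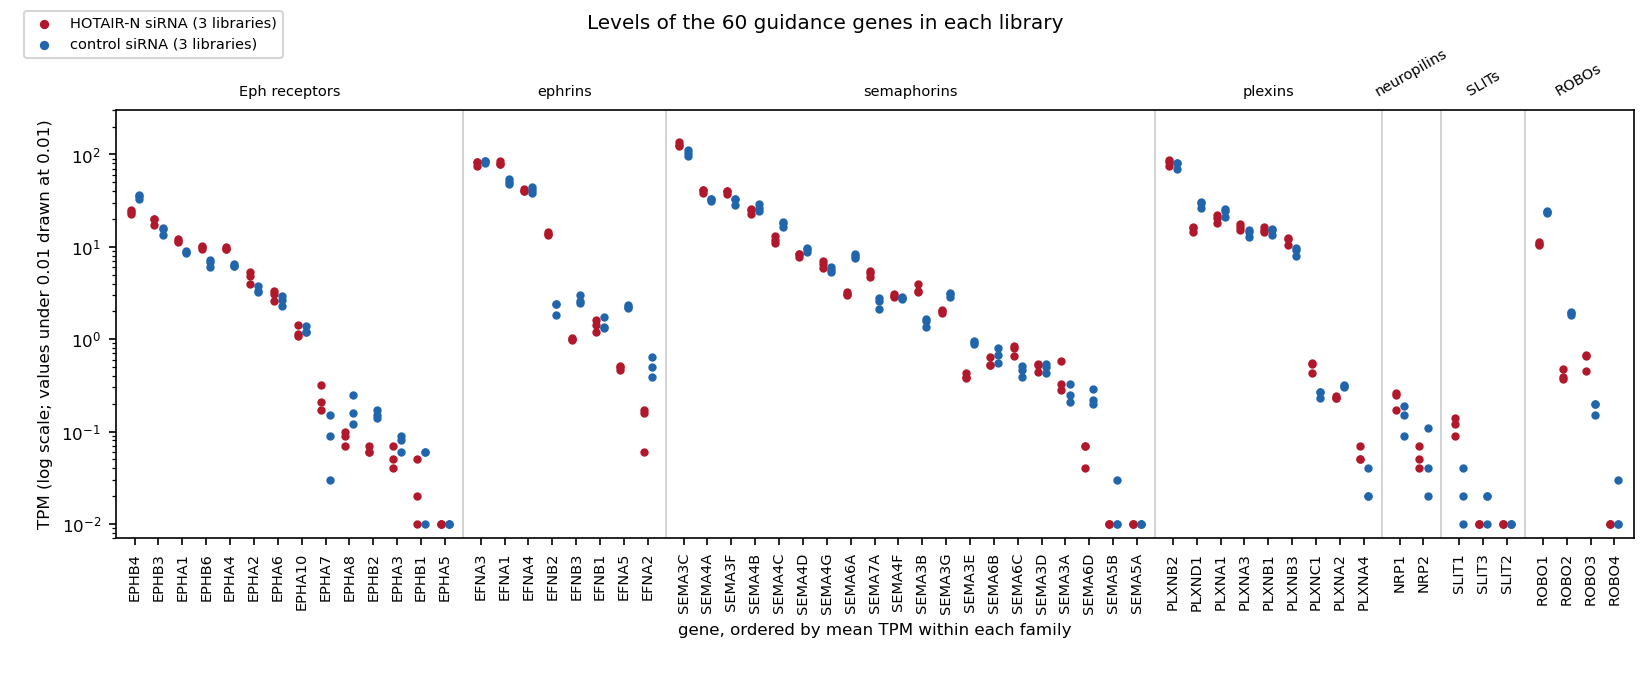
Level of each of the 60 guidance genes in every library (y axis, TPM on a log scale, with values under 0.01 drawn at 0.01), ordered by mean level within each family. HOTAIR-N siRNA libraries are red and control siRNA libraries blue; EFNB2, EFNA5, ROBO1 and ROBO2 are among the genes whose groups stand clearly apart, while SEMA5A, SEMA5B, SLIT2 and ROBO4 lie at or near the bottom in all libraries.

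Summed over a family, the ROBO genes were at 11.8 ± 0.412 TPM after HOTAIR-N siRNA and 25.8 ± 0.478 TPM in controls (SD, n = 3 each). Summed ephrins were at 219 ± 7.31 TPM and summed semaphorins at 278.8 ± 3.34 TPM after HOTAIR-N siRNA, against 185.1 ± 8.63 TPM and 248.4 ± 4.99 TPM in controls. In these 3 families the groups differed by more than the spread within them. Single genes held much of these sums. After HOTAIR-N siRNA ROBO1 was at 10.8 TPM, EFNA1 at 80.7 TPM and SEMA3C at 128.9 TPM, against 23.7, 51.1 and 104.2 TPM in controls. Each of these families also held genes called in both directions. The Eph receptors summed to 83.4 ± 3.79 TPM after HOTAIR-N siRNA and 79.7 ± 3.56 TPM in controls, and the plexins to 161.6 ± 12.7 TPM after HOTAIR-N siRNA and 167.8 ± 14.2 TPM in controls. Both differences are within about 1 SD. Neuropilins and SLITs summed to under 1 TPM in every library. These sums were not tested.

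All 8 ephrins were tested: 2 rose, 3 fell and 3 were not called. EFNB2, which encodes ephrin-B2, the main ligand of EPHB4 and a marker of arterial endothelium, was at 31.2, 30.4 and 32.2 CPM in HOTAIR-N siRNA libraries 1, 2 and 3. In the control siRNA libraries it was at 5.55, 4.20 and 5.59 CPM. The lowest HOTAIR-N siRNA library thus lay far above the highest control. The change was 6.11-fold (log2 fold change 2.61, SE 0.09, edgeR adjusted p = 3.05e-10), the largest rise among the guidance genes. EFNA1, the A-type ephrin that binds EPHA2, had 58.3, 63.8 and 57.9 CPM after HOTAIR-N siRNA and 40.9, 36.7 and 38.6 CPM in controls, again without overlap. It rose 1.55-fold (log2 fold change 0.63, SE 0.06, edgeR adjusted p = 1.49e-06).

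The other B-type and A-type ephrins did not follow EFNB2 and EFNA1. EFNB3, a B-type ephrin known as a midline barrier in the nervous system, fell to 1.70, 1.58 and 1.62 CPM after HOTAIR-N siRNA, against 4.93, 4.11 and 4.30 CPM in controls. This was 36.8% of control (log2 fold change -1.44, SE 0.13, edgeR adjusted p = 8.06e-07). EFNA5, an A-type ephrin that guides retinal axons, had 1.43, 1.37 and 1.28 CPM in the HOTAIR-N siRNA libraries and 6.50, 6.11 and 6.36 CPM in the controls. Every HOTAIR-N siRNA library was far below every control. EFNA5 stood at 21.5% of control (log2 fold change -2.22, SE 0.11, edgeR adjusted p = 6.15e-09). EFNA2, whose ligand binds EphA receptors, was low, with 6, 6 and 2 counts after HOTAIR-N siRNA and 19, 14 and 24 counts in controls, and fell to 25.2% of control (edgeR adjusted p = 0.00064). EFNA3 had 71.9, 70.8 and 64.2 CPM after HOTAIR-N siRNA and 74.0, 71.8 and 74.2 CPM in controls (edgeR adjusted p = 0.162). For EFNA4 the values were 23.7, 23.2 and 22.9 CPM after HOTAIR-N siRNA and 25.4, 22.0 and 23.7 CPM in controls (edgeR adjusted p = 0.761). EFNB1 was at 2.72, 2.40 and 2.00 CPM after HOTAIR-N siRNA and 2.94, 2.32 and 2.26 CPM in controls (edgeR adjusted p = 0.667). The groups overlapped for these 3 ephrins, and none of them was called.

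Of 14 Eph receptor genes, 10 were tested, 5 rose, 3 fell and 2 were not called. EPHB4, the receptor of ephrin-B2, changed in the opposite direction to EFNB2. It was at 54.1, 56.1 and 49.9 CPM after HOTAIR-N siRNA and at 83.1, 75.0 and 81.4 CPM in controls, with no overlap. This was 66.8% of control (log2 fold change -0.58, SE 0.06, edgeR adjusted p = 2.82e-06). EPHA4, which binds ephrins of both types, had 33.0, 31.8 and 31.4 CPM after HOTAIR-N siRNA and 20.9, 22.5 and 21.1 CPM in controls, and rose 1.49-fold (log2 fold change 0.58, SE 0.06, edgeR adjusted p = 2.15e-06). EPHB6, a receptor whose kinase domain is inactive, was at 17.7, 19.2 and 18.4 CPM after HOTAIR-N siRNA and 13.0, 11.6 and 13.9 CPM in controls. It rose 1.44-fold (log2 fold change 0.52, SE 0.08, edgeR adjusted p = 5.72e-05). EPHA2, the epithelial receptor of ephrin-A1, had 9.74, 10.8 and 7.94 CPM after HOTAIR-N siRNA and 7.87, 6.91 and 6.76 CPM in controls. The groups were close, the lowest HOTAIR-N siRNA library being just above the highest control, and the rise was 1.32-fold (log2 fold change 0.40, SE 0.11, edgeR adjusted p = 0.00711).

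Smaller rises were found for EPHA1 (log2 fold change 0.38) and EPHB3 (0.31), which is expressed in epithelial crypts of the intestine. EPHB2, a receptor of B-type ephrins, had 12, 14 and 12 counts after HOTAIR-N siRNA and 32, 34 and 29 counts in controls, and fell to 40.4% of control (log2 fold change -1.31, edgeR adjusted p = 0.000294). EPHA8 had 7, 2 and 4 counts after HOTAIR-N siRNA, beside 13, 13 and 11 in controls, and fell to 35.9% (edgeR adjusted p = 0.00568). Both genes were low in every library. EPHA10, another receptor with an inactive kinase domain, had 3.10, 4.02 and 3.27 CPM after HOTAIR-N siRNA and 3.50, 4.08 and 3.55 CPM in controls, with overlapping groups (edgeR adjusted p = 0.498). EPHA6 had 2.00, 1.64 and 1.97 CPM after HOTAIR-N siRNA and 2.13, 2.12 and 2.15 CPM in controls and was not called (edgeR adjusted p = 0.26), although its groups did not overlap. Its mean level per transcript length had the other order, at 3.01 TPM after HOTAIR-N siRNA and 2.62 TPM in controls. EPHA3, EPHA5, EPHA7 and EPHB1 had at most 11 counts in any library and were not tested.

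Among the 7 secreted class 3 semaphorins, all of which were tested, 3 rose, 2 fell and 2 were not called. SEMA3C, which shapes the cardiac outflow tract and is known as a growth-promoting semaphorin in several tumours, had 329.6, 339.7 and 358.3 CPM after HOTAIR-N siRNA and 279.2, 299.4 and 263.5 CPM in controls. The groups did not overlap, but the rise was only 1.22-fold (log2 fold change 0.29, SE 0.05, edgeR adjusted p = 0.000303). SEMA3B, known as a candidate tumour suppressor, had 4.97, 5.36 and 4.61 CPM after HOTAIR-N siRNA, against 2.52, 2.00 and 2.38 CPM in controls, and rose 2.16-fold (log2 fold change 1.11, SE 0.12, edgeR adjusted p = 5.98e-06). SEMA3F, an anti-angiogenic semaphorin that prefers NRP2, rose by 0.28 on the log2 scale. SEMA3E, the class 3 member that can bind PLXND1 without a neuropilin, fell to 1.32, 1.34 and 1.48 CPM after HOTAIR-N siRNA, against 3.31, 3.40 and 3.12 CPM in controls. Its groups were far apart, at 42.1% of control (log2 fold change -1.25, SE 0.13, edgeR adjusted p = 3.8e-06). SEMA3G, which acts through NRP2, fell to 64.8% of control (log2 fold change -0.63). SEMA3A, the founding axon repellent of the class, had 0.961, 0.822 and 1.68 CPM after HOTAIR-N siRNA and 0.616, 0.983 and 0.745 CPM in controls, and SEMA3D differed little on average. Neither was called (edgeR adjusted p = 0.0959 and 0.99).

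Of the 11 membrane-bound semaphorins of classes 4, 6 and 7, all tested, 3 rose, 4 fell and 4 were not called. SEMA6A, which signals through PLXNA2 and PLXNA4, had 11.8, 10.8 and 11.1 CPM after HOTAIR-N siRNA and 27.5, 30.9 and 29.8 CPM in controls. All HOTAIR-N siRNA libraries lay under the controls, at 38.2% (log2 fold change -1.39, SE 0.07, edgeR adjusted p = 4.07e-09). SEMA7A, the lipid-anchored semaphorin that binds PLXNC1 and integrins, was at 8.86, 9.43 and 7.79 CPM after HOTAIR-N siRNA, beside 4.76, 3.72 and 4.41 CPM in controls. It rose 2.02-fold (log2 fold change 1.01, SE 0.11, edgeR adjusted p = 5.23e-06). SEMA6D, a class 6 member that binds PLXNA1, had only 4, 7 and 7 counts after HOTAIR-N siRNA, against 25, 26 and 22 in controls (25.1% of control, edgeR adjusted p = 8.95e-05). SEMA6C rose 1.65-fold at a level of at most 1.67 CPM in any library, and SEMA6B was not called (edgeR adjusted p = 0.194).

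In class 4, SEMA4A rose by 0.28 on the log2 scale, and SEMA4C, a ligand of PLXNB2, fell to 66.1% of control (log2 fold change -0.60). SEMA4D, a ligand of PLXNB1, fell to 85.0% of control (log2 fold change -0.23, edgeR adjusted p = 0.00647). SEMA4B had 46.9, 47.4 and 42.0 CPM after HOTAIR-N siRNA and 53.9, 46.5 and 50.4 CPM in controls (edgeR adjusted p = 0.0697). SEMA4F had 9.08, 9.22 and 9.76 CPM after HOTAIR-N siRNA, just above 8.85, 8.76 and 9.02 CPM in controls (edgeR adjusted p = 0.37). For SEMA4G the values were 14.9, 14.6 and 13.1 CPM after HOTAIR-N siRNA and 13.8, 11.9 and 12.6 CPM in controls (edgeR adjusted p = 0.112). None of these 3 was called. SEMA5A and SEMA5B, class 5 members, had at most 3 counts in any library and were not tested.

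All 9 plexin genes were tested, and 3 rose, 3 fell and 3 were not called, none of them by 2-fold. PLXND1, the receptor of SEMA3E, had 58.7, 59.2 and 52.2 CPM after HOTAIR-N siRNA and 112.2, 96.6 and 110.5 CPM in controls. The highest HOTAIR-N siRNA library was far below the lowest control, and the log2 fold change was -0.91 (SE 0.07, edgeR adjusted p = 1.68e-07). SEMA3E and PLXND1 thus both fell. PLXNC1, the receptor of SEMA7A, had 0.878, 1.10 and 1.07 CPM after HOTAIR-N siRNA and 0.448, 0.536 and 0.544 CPM in controls, and rose 1.98-fold (log2 fold change 0.99, SE 0.21, edgeR adjusted p = 0.00132). In the transcript tables its reads all fell to NR_037687, a transcript that is noncoding in RefSeq. The coding transcript NM_005761 was listed at 0 in all 6 libraries. GENCODE matches NR_037687 to a transcript with a coding region and a 3′ UTR of 313 bases. PLXNB3, a receptor of SEMA5A, had 38.9, 39.8 and 33.7 CPM after HOTAIR-N siRNA and 30.1, 25.9 and 32.1 CPM in controls (log2 fold change 0.35, SE 0.08, edgeR adjusted p = 0.0027), with the groups just apart.

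PLXNA2, a receptor of SEMA6A, had 1.40, 1.37 and 1.45 CPM after HOTAIR-N siRNA and 1.96, 1.88 and 1.89 CPM in controls. It fell to 73.7% of control (log2 fold change -0.44, SE 0.14, edgeR adjusted p = 0.0164). PLXNA1, a neuropilin partner, fell by 0.26 on the log2 scale, with groups that overlapped (96.9, 104 and 86.8 CPM after HOTAIR-N siRNA, against 123.3, 102.2 and 118.2 CPM in controls). PLXNA4, with 12, 16 and 11 counts after HOTAIR-N siRNA and 10, 4 and 6 in controls, was called higher (edgeR adjusted p = 0.0382), and in only 6 of the 14 other settings that tested it. PLXNB2, the plexin with the highest level, had 275.6, 288.8 and 243.3 CPM after HOTAIR-N siRNA and 270.7, 235.7 and 270.4 CPM in controls (edgeR adjusted p = 0.473). PLXNB1, the SEMA4D receptor, had 56.7, 61.0 and 53.4 CPM after HOTAIR-N siRNA and 59.8, 50.8 and 58.2 CPM in controls (edgeR adjusted p = 0.826). PLXNA3, which pairs with NRP2, had 57.2, 61.7 and 53.7 CPM after HOTAIR-N siRNA and 54.6, 46.0 and 52.8 CPM in controls (edgeR adjusted p = 0.052), and without HOTAIR-N siRNA library 3 its adjusted p was 0.0272.

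The neuropilins, obligate partners of A-type plexins for most class 3 semaphorins, were near the floor of detection although SEMA3C was the most abundant guidance gene. NRP1 had 11, 12 and 10 counts after HOTAIR-N siRNA and 4, 7 and 10 counts in controls. It was not called (log2 fold change 0.65, SE 0.38, edgeR adjusted p = 0.141). NRP2 had 2, 3 and 4 counts after HOTAIR-N siRNA, beside 6, 1 and 3 counts in controls, and was not tested.

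Of 4 ROBO genes, 3 were tested, of which 1 rose and 2 fell. ROBO1, the ROBO with the highest level, had 40.0, 40.5 and 43.1 CPM after HOTAIR-N siRNA and 91.7, 93.4 and 89.2 CPM in controls. The libraries of each group lay close together and the groups far apart, at 45.0% of control (log2 fold change -1.15, SE 0.05, edgeR adjusted p = 1.64e-09). ROBO2 fell further, with 1.81, 1.67 and 2.17 CPM after HOTAIR-N siRNA against 8.94, 8.49 and 9.31 CPM in controls. That is 21.2% of control (log2 fold change -2.24, SE 0.11, edgeR adjusted p = 5.02e-09). ROBO3, whose mammalian form is a divergent receptor that binds SLITs poorly, had 1.54, 1.58 and 1.04 CPM after HOTAIR-N siRNA and 0.364, 0.477 and 0.487 CPM in controls. It rose 3.12-fold from this low level (log2 fold change 1.64, SE 0.24, edgeR adjusted p = 6.31e-05). ROBO4, a receptor of endothelial cells, had 0 counts in 5 libraries and 2 in control siRNA library 3.

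SLIT ligands were close to absent. SLIT1 had 18, 19 and 12 counts after HOTAIR-N siRNA and 3, 6 and 1 counts in controls, and was called higher (log2 fold change 2.26, SE 0.46, edgeR adjusted p = 0.000874). Reads of the read-through gene ARHGAP19-SLIT1 share 216 exon bases with it on the same strand, which makes its assignment uncertain. SLIT2 had 1 count in all, in a control library, and SLIT3 had 2, 0 and 1 counts after HOTAIR-N siRNA and 4, 4 and 2 in controls. ROBO1 and ROBO2 thus fell in cells with under 1 CPM of any SLIT.

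**Figure D4:**
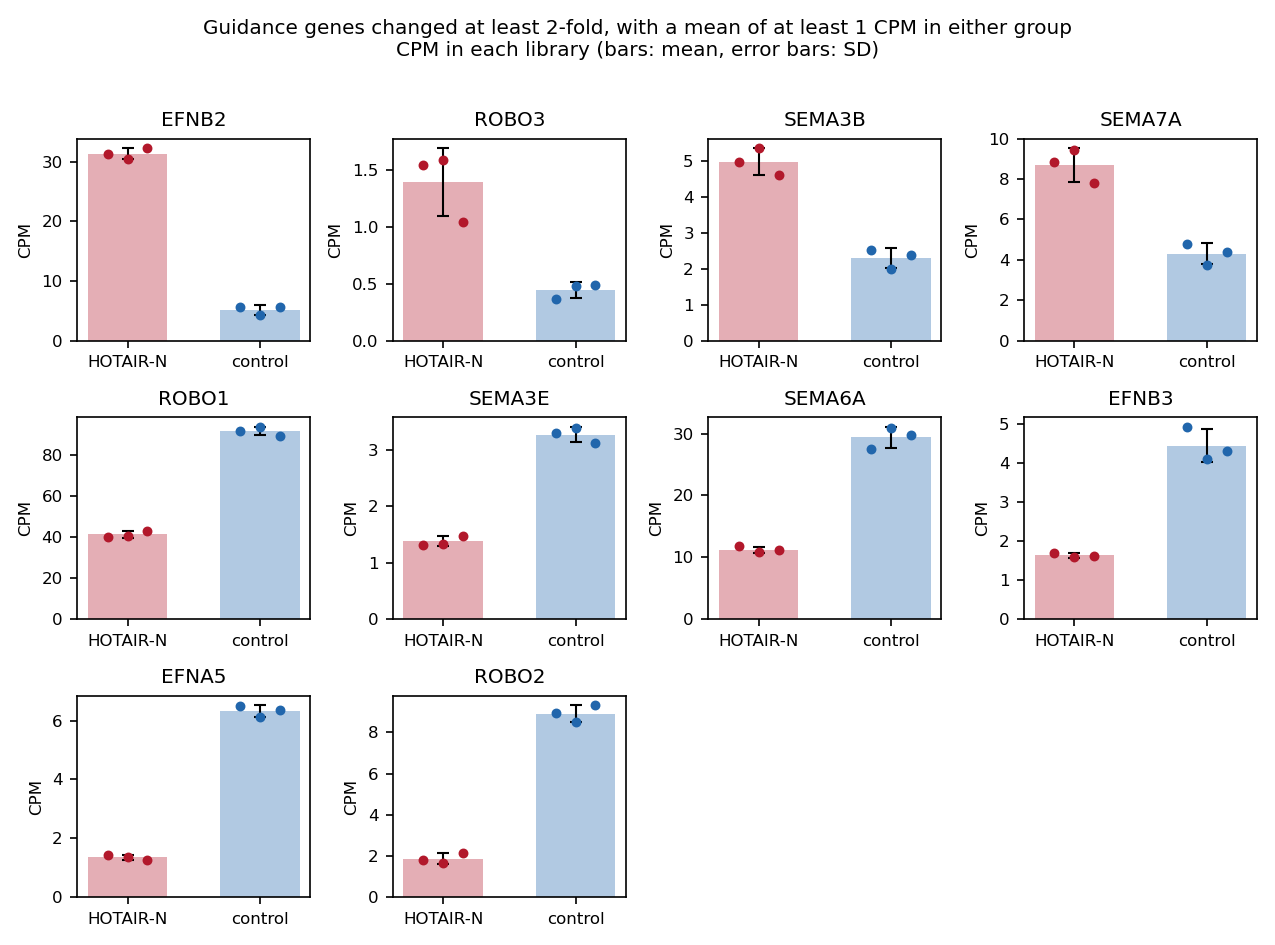
CPM in each library (points) for the 10 guidance genes that changed at least 2-fold and had a mean of at least 1 CPM in either group, with HOTAIR-N siRNA on the left and control siRNA on the right of each panel (bars: mean, error bars: SD, n = 3). The points of the groups do not overlap in any panel; EFNB2, SEMA3B, SEMA7A and ROBO3 are higher and the other 6 lower after HOTAIR-N siRNA.

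Sorted by role, both receptors and ligands held changes in each direction. Of 23 tested receptor genes (Eph receptors, plexins, neuropilins and ROBOs), 9 rose (39.1%), 8 fell (34.8%) and 6 were not called. Of 27 tested ligand genes (ephrins, semaphorins and SLITs), 9 rose, 9 fell and 9 were not called (33.3% each). Both lie near the 36.2% higher and 34.8% lower of all tested genes. Known ligand and receptor pairs included both like and opposite changes. SEMA3E and PLXND1 both fell, SEMA7A and PLXNC1 both rose, EFNA1 and EPHA2 both rose, and EFNB2 rose while EPHB4 fell. SEMA6A fell with PLXNA2, whereas its other receptor gene PLXNA4 was called higher, at a few counts per library. PLXNA4 reached the filter in the HOTAIR-N siRNA libraries alone, and its call held in only 6 of the 14 other settings that tested it. PLXNC1 reads were on a transcript that is noncoding in RefSeq, as given above. Taken alone in the transcript tables, this transcript was not called (edgeR adjusted p = 0.0787). SEMA4C fell beside an uncalled PLXNB2. These pairs were picked for known binding after the values were seen, and no count over them was tested.

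Netrins, co-receptors and the intracellular effectors of these receptors were counted on a separate list of 84 genes. Of 71 tested, 21 rose, 35 fell and 15 were not called, so 29.6% were higher and 49.3% lower (beside 36.2% and 34.8% of all tested genes), and the median log2 fold change was -0.21. These counts and those of the subgroups below include genes that reached the filter in a single group, such as UNC5A, DCC and NRCAM. A gene of that kind was tested through a single group, which favours a difference between the groups. Named here are the largest changes among list members with at least 1 CPM in either group. Lower ones, such as the netrin receptor gene UNC5A (log2 fold change 3.18, with 16, 17 and 15 counts after HOTAIR-N siRNA and 2, 0 and 3 in controls), were left aside. L1CAM, an adhesion molecule that partners NRP1, had 107.4, 113.6 and 96.1 CPM after HOTAIR-N siRNA and 23.1, 23.2 and 23.9 CPM in controls, a 4.51-fold rise (edgeR adjusted p = 1.23e-10). FLRT3 and FLRT1, membrane proteins that bind UNC5 receptors, rose 3.71-fold and 3.31-fold (edgeR adjusted p = 5.48e-09 and 3.07e-06), and the netrin gene NTN4 rose 3.22-fold (edgeR adjusted p = 7.26e-09). GRIP1, a scaffold that binds B-type ephrins, stood at 24.6% of control (edgeR adjusted p = 2.57e-08). FARP1, an exchange factor linked to A-type plexins, had 12.7, 12.4 and 13.4 CPM after HOTAIR-N siRNA and 38.7, 36.8 and 39.6 CPM in controls, or 33.5% of control (edgeR adjusted p = 6.01e-10).

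Among its subgroups, the 16 effectors of Eph signalling held 5 higher (31.2%) and 10 lower (62.5%) genes. The 9 tested co-receptors and VEGF ligands held 2 higher (22.2%) and 5 lower (55.6%). Of 15 tested semaphorin and plexin effectors 4 rose (26.7%) and 5 fell (33.3%). The 10 SLIT-ROBO effectors held 3 higher (30%) and 4 lower (40%) genes. The 11 tested netrin ligands, receptors and repulsive guidance molecules held 4 higher (36.4%) and 5 lower (45.5%). All tested genes stood at 36.2% higher and 34.8% lower, and no difference between a subgroup and that background was tested.

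In the transcript tables the guidance genes had 155 transcripts, of which 76 in 47 genes were tested. Of these 76, 14 rose and 14 fell. Of all 32285 tested transcripts 4967 rose and 5360 fell, which is 32% in either direction. The share of a transcript within its gene was tested with limma for 47 transcripts of 18 guidance genes. Usage changed for 2 transcripts, both of SEMA4D, beside 5.9% of all 25038 transcripts tested for it. SEMA4D was singled out after its values were seen.

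SEMA4D encodes a membrane-bound semaphorin that can also be shed. Its tested transcripts NM_006378 and NM_001142287 share the first 1663 coding bases and then part, with 923 and 551 coding bases of their own, so that their coding regions hold 862 and 738 codons. The 60 bases around the point where they part are shown because reads over it tell the forms apart. They are from the matching GENCODE v29 transcripts on chromosome 9, 5′ to 3′ on the sense strand, with the bases after the parting point in capitals.
NM_006378: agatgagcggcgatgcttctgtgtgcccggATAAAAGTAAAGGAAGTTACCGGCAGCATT
NM_001142287: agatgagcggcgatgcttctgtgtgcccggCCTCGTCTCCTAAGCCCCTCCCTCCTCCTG

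The shorter coding form NM_001142287 made up 41.6%, 41.4% and 43.6% of the TPM of SEMA4D in HOTAIR-N siRNA libraries 1, 2 and 3, against 16.5%, 20.1% and 19.6% in control siRNA libraries 1, 2 and 3. The shares of the groups were far apart, with means of 42.2 ± 1.25% and 18.7 ± 1.94% (SD, n = 3 each). On the log2 odds scale the difference was 1.67 (SE 0.16, limma adjusted p = 0.00887). NM_001142287 itself rose 1.96-fold, with 287, 256 and 266 counts after HOTAIR-N siRNA and 128, 136 and 153 counts in controls (edgeR adjusted p = 0.00306). NM_006378 had 425, 381 and 362 counts after HOTAIR-N siRNA and 683, 569 and 665 counts in controls, or 61.6% of control (edgeR adjusted p = 0.00249). The gene-level value, 85.0% of control, thus holds opposite changes of its 2 transcripts. Each library left out in turn gave an adjusted p of 0.0342 to 0.0447 for the share, and without HOTAIR-N siRNA library 3 and control siRNA library 2 the adjusted p was 0.096 at nearly the same difference (1.69 on the log2 odds scale).

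**Figure D5:**
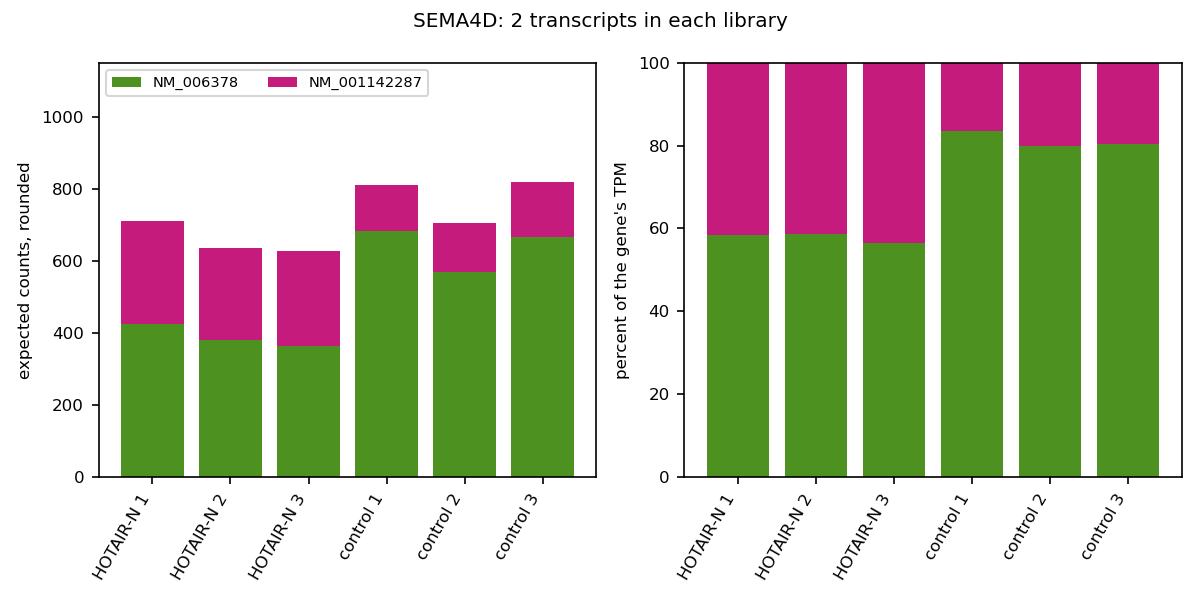
The 2 tested SEMA4D transcripts in each library, in expected RSEM counts (left) and as percent of the gene's TPM (right), with HOTAIR-N siRNA libraries before control siRNA libraries. NM_001142287 makes up 41.4% to 43.6% after HOTAIR-N siRNA and 16.5% to 20.1% in controls.

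Other transcript shares were not called. NM_006379, the main SEMA3C transcript, made up 88.6% of the gene's TPM after HOTAIR-N siRNA and 78.0% in controls (limma adjusted p = 0.0899). The EPHA6 transcript NM_001278301 made up 97.7% of TPM after HOTAIR-N siRNA and 83.4% in controls (limma adjusted p = 0.0982). GENCODE matches it to an incomplete coding transcript of 1078 bases with 4 exons, while the other, NM_001080448, matches one of 3971 bases, so shares of TPM weigh the short form more than shares of reads do. In expected counts NM_001278301 held 93.8% after HOTAIR-N siRNA (183 counts, beside 12 on NM_001080448) and 62.2% in controls (138 counts, beside 84).

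Several guidance genes are neighbours in the genome. Within 1 Mb of each other in GENCODE lie 11 pairs of them. Of the 10 pairs with both genes tested, 4 (40%) were called in the same direction and 0 in opposite directions. Over all 164679 pairs of tested genes within that distance, the shares were 26.2% and 23%. With so few pairs, which share genes, this is a description only. ROBO1 and ROBO2 on chromosome 3 both fell, SEMA3B and SEMA3F on the same chromosome both rose, EPHB6 and EPHA1 on chromosome 7 both rose, and EPHA8 and EPHB2 on chromosome 1 both fell. EPHA8 reached the filter in the control siRNA libraries alone, which favours a difference between the groups. The 40% includes its pair. EFNA1, which rose, lies beside EFNA3 and EFNA4, which were not called.

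The letters GACCAAT in a 3′ UTR had been picked in earlier work on these data because genes carrying them had low fold changes, so they are given only as a description. On the sense strand they were found in 1 of the 49 tested guidance genes with an annotated 3′ UTR (2.04%), beside 634 of 12485 such genes in all (5.08%). That gene is EFNA5, which stood at 21.5% of control. The site, from GENCODE v29 on chromosome 5 with the 7 letters in capitals, is shown with 11 bases on each side.
EFNA5: gaaaagtgttaGACCAATtgaaaagcaat
ROBO1, ROBO2, SEMA6A, EFNB3 and PLXND1, which also fell, do not hold these letters in the 3′ UTR used. For ROBO1 that 3′ UTR has only 225 bases, beside 4366 for EFNA5, so the absence says little there. The last 6 letters, ACCAAT, were in 9 of the 49 (18.4%), beside 20.1% of all.

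Some values can hold reads of an overlapping gene, since the libraries were stranded but whether their counting used strand is not stated. EFNB2 shares 1313 exon bases with the antisense gene AL138689.2, EPHA4 353 with AC079834.2, SEMA4G 1170 with MRPL43 and SEMA6A 268 with SEMA6A-AS1, all on the opposite strand. PLXNC1 shares 177 with CEP83, and NRP1 561 with AL121748.2, likewise on the opposite strand. On the same strand PLXNB3 shares 1432 exon bases with SRPK3, and EFNA3 and EFNA4 share 853 and 189 with the read-through gene AL691442.1. Shorter overlaps on the opposite strand are those of EPHB4 (69 bases with SLC12A9), EPHA1 (82 with ZYX) and SEMA3F (110 with SEMA3F-AS1). EPHB2 (34 with MIR4253), PLXNA3 (11 with LAGE3) and SEMA6A (58 with SEMA6A-AS2) have such overlaps too. Values of these genes are uncertain to that extent.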

How the data were processed

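RNA-seq was analysed from 6 libraries, 3 per siRNA, all assigned to their group by the labels. The submitters' processing notes name STAR 2.6.0c, RSEM 1.3.0 and genome build hg19, without settings. Per the file headers, the deposited tables give an expected count per gene or transcript, which RSEM estimates. Per the file headers, they also give TPM and FPKM, and the transcript tables each transcript's share of its gene as a percent. FPKM values were not used.

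Expected counts were rounded, filtered with filterByExpr of edgeR 4.0.16 (minimum count 10, minimum total 15), and scaled by TMM. The quasi-likelihood test of edgeR was run in R 4.3.3 over all genes or transcripts without covariates, and a Benjamini-Hochberg adjusted p below 0.05 made a call. TMM also scales the CPM. A positive log2 fold change means higher after HOTAIR-N siRNA. Percent of control and folds come from these log2 values. Transcript usage was tested with limma 3.58.1 on log2 odds of a transcript against the other tested transcripts of its gene, with 1 added to each count. The steps were tested on simulated data in which most features did not change. In the real data 71.1% of tested genes were called, a setting that the simulation did not cover. Every pair of replicate libraries differed by more than sampling noise, and each counted as a replicate.

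Gene models, exon overlaps, 3′ UTRs and sequences are from GENCODE v29, matched by RefSeq accession. Its build is not that of the files, so no coordinates are given.

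Values in every library are given for the 4 largest changes in each family with at least 1 CPM in either group, the highest level in each family, and uncalled genes with at least 1 TPM. From the effector list, the 6 largest changes with at least 1 CPM in either group are named, and UNC5A was added after its values were seen. One subgroup of that list is not reported here. Members and lists were chosen with earlier results of these data known. Alternatives were RLE factors, library totals, upper-quartile factors, limma-voom, DESeq2 1.42.0, other filters and thresholds, the replicate number as a block and each library left out.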

Additional observations from a re-analysis of the deposited data

How the results depend on the processing

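The counts of guidance genes called, 18 higher and 17 lower, stayed between 16 and 21 higher and between 13 and 18 lower under every other scaling, test, filter and left-out library, apart from a demand of at least 1.5-fold, which left 9 higher (13 lower). The same demand left 10 higher and 17 lower on the effector list and 2613 higher and 2260 lower among all tested genes. With library totals alone, which shift the median of all log2 fold changes by 0.098, 21 guidance genes were higher and 15 lower, and 6480 and 4263 of all genes. Of 35 called guidance genes, 31 were called the same way in all of the 15 refits that tested them. The exceptions were PLXNA1 and SEMA4D (lost with library totals alone), PLXNA2 (lost with DESeq2) and PLXNA4 (kept in 6 of 14). Of the 15 not called, 10 were not called in any refit, and PLXNA3, SEMA4B, SEMA4G, SEMA4F and SEMA3A were called in at least 1. Transcripts called higher, 14 in the report, numbered 6 at an adjusted p under 0.01 and 6 to 12 with a library left out. Usage changes, 2 in the report, numbered 2 to 4 with a library left out and 1 without HOTAIR-N siRNA library 3 and control siRNA library 2. That 1 was a SEMA4F transcript (limma adjusted p = 0.0253), while neither SEMA4D transcript was called there. Log2 fold changes turned sign only for genes that were not called. With library totals alone they were 0.0093 for EFNA3, 0.0742 for EFNA4 and 0.0174 for EFNB1, with upper-quartile scaling 0.0335 for EFNA4, and with no filter -0.001 for PLXNB1. With 1 library left out, or HOTAIR-N siRNA library 3 and control siRNA library 2 together (an alternative chosen after seeing the data), they ranged from -0.0809 to 0.0241 for EFNA4, from -0.1933 to 0.0465 for EFNB1, from -0.0558 to 0.0586 for PLXNB1 and from -0.0133 to 0.117 for PLXNB2. SEMA3D, at -0.0025 with all libraries, ranged from -0.0912 to 0.0955 over all refits. The cause was not tested.

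Libraries with the same replicate number did not deviate together (Pearson's r of -0.04, -0.21 and -0.12 across genes, which are not independent replicates), and no label ties the numbers to a shared batch. For pairs with different numbers Pearson's r ran from -0.13 (HOTAIR-N siRNA library 3 with control siRNA library 1) to 0.22. The highest value was that of HOTAIR-N siRNA library 3 with control siRNA library 2. With the replicate number as a block, 17 guidance genes were higher and 17 lower, 5 transcripts higher and 11 lower, and 0 transcripts changed in usage (limma adjusted p = 0.134 for SEMA4D). A guidance gene that did not reach about 10 counts in 3 libraries, such as NRP2, SLIT2 or SLIT3, could not be tested. A difference there was not detectable at this depth.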
